A study of Mus musculus with 4 samples.

Results

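T and Eomes are 2 of the 26041 genes listed in the single-cell count tables, and both encode T-box transcription factors. They were chosen by name, and every cell of both genotypes was searched for them. Testes came from mice aged 4 wk, and their dissociated cells were sorted for tdTOMATO. All cells of both genotypes carried the knock-in allele Eomes<tm1.1(icre/ERT2)Reb>, on a B6N.Cg background, in which the Eomes locus drives iCreERt2 and the reporter. Controls were Plzf +/+, and mutants were Plzf lu/lu, homozygous for luxoid, a mutation of the transcription factor gene Plzf that the tables list as Zbtb16. The 3 Plzf +/+ libraries held 317, 303 and 277 cells from plates 1, 2 and 4, and the 2 Plzf lu/lu libraries (plates 3 and 4) held 314 and 38 cells. The sort kept cells above the fluorescence of tdTOMATO-negative littermates, 1 cell per well, so the cells are a sample chosen by activity of the Eomes locus and not a sample of all spermatogonia. Transcripts were counted from their 3′ ends, and the counts of Eomes do not say which of its alleles a molecule came from. The labels name plates and no animals, so no p-value below can be taken to measure a spread between animals. Genotype p-values measure the spread between these libraries only. Those of splits within libraries measure how far the split varies from library to library. Both draw on variance shared over genes, and the splits do so more strongly.

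Each molecule was counted by a unique molecular identifier (UMI), and a cell is called positive for a gene when it holds at least 1 UMI of it. Cells held 612 to 95069 UMIs in Plzf +/+ (median 5908) and 1391 to 56651 UMIs in Plzf lu/lu (median 6271.5). Where depth could set a share, each cell was thinned at random to 4000 UMIs and shallower cells were left out. This kept 654 of 897 Plzf +/+ cells and 247 of 352 Plzf lu/lu cells. The plates used 1 common set of well barcodes, and 358 of 376 barcodes occurred in 2 or more libraries. Zbtb16, the mutated gene, had 76.7, 51.8 and 72.3 CPM (UMI counts scaled to a common total per library) in Plzf +/+ and 18.3 and 12.1 CPM in Plzf lu/lu (log2 fold change -1.97, edgeR quasi-likelihood adjusted p = 0.0319). Whether the luxoid change leaves the 3′ end of Zbtb16 intact was not tested.

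T, or Brachyury, and EOMES are best known from the gastrulating embryo, where they act in the primitive streak to form mesoderm and endoderm. Both bind the T-box element, whose half-site reads AGGTGTGA. In the adult testis, spermatogonial stem cells (SSCs) lie on the basement membrane of the seminiferous tubule, carry the GDNF co-receptor GFRA1, and give rise to progenitors that later respond to retinoic acid through STRA8.

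T (gene ID 20997) lies at chr17:8434423-8442496 and Eomes (gene ID 13813) at chr9:118478186-118486132 of the mouse assembly GRCm38.p6. Each overlaps 1 other annotated gene, LOC115486424 and Gm33408, and neither of these has a row in the tables. Whether the counting used strand is not given in the sources used here. The 250 bases before the transcript start in RefSeq (GRCm38.p6) are shown for both genes, and for Lhx1, a gene that varied with T below, so that the start regions of the genes can be set side by side. The windows are chr17:8434173-8434422 (plus strand), chr9:118477939-118478188 (plus strand) and chr11:84525535-84525784 (minus strand), each read in the direction of transcription. The Eomes window ends just inside the gene range given above, which starts at 118478186. Capitals mark AGGTGT, the first letters of the T-box element, on either strand.
T: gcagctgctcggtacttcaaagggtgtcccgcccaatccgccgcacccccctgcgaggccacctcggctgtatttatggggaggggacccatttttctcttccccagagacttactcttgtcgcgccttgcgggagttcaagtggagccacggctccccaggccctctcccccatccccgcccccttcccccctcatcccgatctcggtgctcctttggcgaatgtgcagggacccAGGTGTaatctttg
Eomes: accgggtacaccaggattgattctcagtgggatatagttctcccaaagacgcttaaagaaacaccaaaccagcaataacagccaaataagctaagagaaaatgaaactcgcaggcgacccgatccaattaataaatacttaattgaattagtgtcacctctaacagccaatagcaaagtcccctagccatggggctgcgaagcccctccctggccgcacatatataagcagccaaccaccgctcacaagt
Lhx1: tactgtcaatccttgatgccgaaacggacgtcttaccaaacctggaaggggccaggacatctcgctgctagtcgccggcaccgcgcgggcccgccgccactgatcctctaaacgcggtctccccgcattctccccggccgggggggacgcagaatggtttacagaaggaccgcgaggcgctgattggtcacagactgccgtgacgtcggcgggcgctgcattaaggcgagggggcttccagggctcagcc
The T window held AGGTGT and the Eomes and Lhx1 windows did not. The letters AGGTGT occurred on either strand in 11.8% of the 32851 mouse promoter windows of this length, GGTGTGA in 3.33% and AGGTGTGA in 1.12%. Both shorter motifs lie within AGGTGTGA but not within each other, and a match is a description of letters and not a binding site.

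T was found in more Plzf +/+ cells than Eomes was, and in few Plzf lu/lu cells. T UMIs numbered 82, 90 and 40 in Plzf +/+ plates 1, 2 and 4, in 49, 52 and 33 cells, which is 15.5%, 17.2% and 11.9% of the cells. In Plzf lu/lu 4 UMIs were found in 4 of 314 cells (1.27%) of plate 3, and 0 of 38 cells of plate 4 had one, which allows a share of up to 7.89%. The genotypes did not overlap, and the plate 4 library was the lowest of the Plzf +/+ libraries. Over all libraries the share was 14.9% in Plzf +/+ (95% Clopper-Pearson interval 12.7 to 17.4%) and 1.14% in Plzf lu/lu (0.310 to 2.88%), and these intervals and limits cover counting error only.

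Eomes was sparser, although its locus drove the reporter by which the cells were sorted. Its UMIs numbered 44, 29 and 23 in 38, 27 and 20 Plzf +/+ cells, or 12.0%, 8.91% and 7.22% of each library. In Plzf lu/lu 5 UMIs were found in 4 cells of plate 3 and 0 in plate 4. All 3 Plzf +/+ libraries lay above the Plzf lu/lu library of plate 3. The 0 of 38 cells of plate 4 allow a share of up to 7.89%, above the 7.22% of the lowest control, so a separation from that library was not detectable at its depth. Over all libraries Eomes was found in 85 of 897 Plzf +/+ cells (9.48%, 7.64 to 11.6%) and in 1.14% of Plzf lu/lu cells.

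Most positive cells carried a single molecule. Of the 134 T-positive Plzf +/+ cells 85 had 1 UMI, 27 had 2 and 22 had 3 or more, with at most 4. Of the 85 Eomes-positive cells 74 had 1 UMI and 11 had 2. Positive cells were deeper than the others, with medians of 6343 against 5795 UMIs for T and 7476 against 5702 UMIs for Eomes. At an equal depth of 4000 UMIs T was found in 12.0%, 17.8% and 9.18% of Plzf +/+ cells and in 0 of 247 Plzf lu/lu cells, and Eomes in 6.44%, 6.67% and 4.59% against 1 of 247 (0.405%). Thinning therefore kept the order of the genotypes. No UMI of either gene was found in the 30 cells of a Sertoli cell-like cluster, which allows a share of up to 10.0%. That cluster had a median of 3168 UMIs, below the 5908 of the Plzf +/+ cells.

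As library sums, T had 38.4, 37.0 and 20.5 CPM in Plzf +/+ (31.9 ± 9.93, SD, n = 3) and 1.59 and 0 CPM in Plzf lu/lu (0.797 ± 1.13, SD, n = 2). The log2 fold change was -4.43 (SE 0.60, edgeR quasi-likelihood adjusted p = 0.0220), in a comparison that called 112 of 13728 genes (0.816%). The call was lost when Plzf +/+ plate 2 (edgeR adjusted p = 0.121) or plate 4 (0.0691) was left out, and when Plzf lu/lu plate 3 (0.355) or plate 4 (0.0985) was. Eomes had 20.6, 11.9 and 11.8 CPM (14.8 ± 5.04, SD, n = 3) against 1.99 and 0 CPM (0.996 ± 1.41, SD, n = 2). Its log2 fold change of -3.02 (SE 0.65) did not pass the threshold (edgeR adjusted p = 0.0801), and it passed when Plzf +/+ plate 1 was left out (edgeR adjusted p = 0.0108). Plates 1, 2 and 3 carried cells of 1 genotype each, and there the effect of the plate and that of the genotype cannot be told apart. Within plate 4, T had 20.5 CPM in Plzf +/+ cells against 0 UMIs in Plzf lu/lu cells, where 3 UMIs would be 12.1 CPM. T was thus at least 1.70-fold higher in Plzf +/+ if its 20.5 CPM, from 40 UMIs, is taken without counting error. Eomes at 11.8 CPM was under the limit of 12.1 CPM, and a difference was not detectable at the depth of the 38 cells. In sums over cells, fewer cells of a type and less RNA per cell cannot be told apart.

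**Figure D1:**
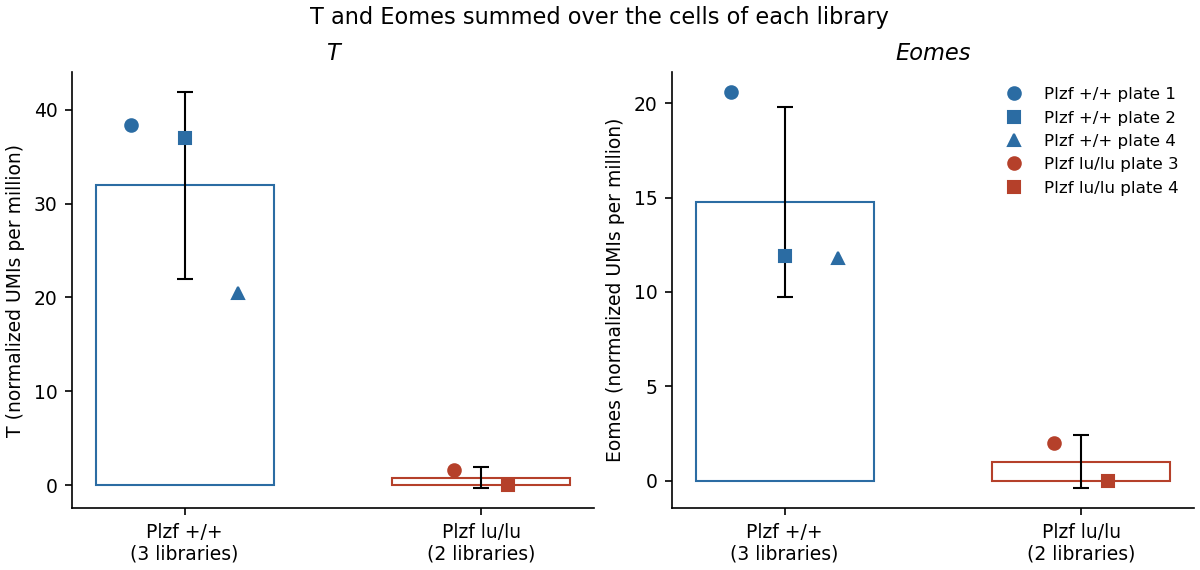
T (left) and Eomes (right) in each library, in normalized CPM summed over its cells (vertical axis, linear). Points are libraries, bars the mean of 3 Plzf +/+ or 2 Plzf lu/lu libraries and error bars 1 SD, and the Plzf +/+ points lie at 20.5 to 38.4 for T and 11.8 to 20.6 for Eomes, all above the Plzf lu/lu points at 0 to 1.99.

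All 17 genes of the T-box family were in the tables, and 5 passed the filter on low counts in the genotype comparison, namely T, Eomes, Tbx3, Mga and Tbx1. Beside T and Eomes, none of the other 3 was called by edgeR, and 1, Tbx3, had an unadjusted p under 0.05. Tbx3, a repressor of the family, had 9.83, 14.4 and 19.0 CPM in Plzf +/+ against 1.59 and 0 CPM in Plzf lu/lu (log2 fold change -3.29, edgeR adjusted p = 0.0697). Mga, a T-box protein that pairs with MAX, had a log2 fold change of -0.19 (edgeR adjusted p = 0.767), and Tbx1 one of 0.77 (edgeR adjusted p = 0.697). In the list of 12 SSC identity genes 11 were tested and T and Zbtb16 were lower, against 32 of 13728 over all genes (0.233%). That list was taken from genes the study examined in these cells and is not independent evidence of direction. Of the primitive streak genes 21 of 25 were in the tables and 10 were tested, with Lhx1 lower in Plzf lu/lu and 9 not called. Sertoli cell markers summed to 431 to 531 CPM in Plzf +/+ and 668 to 1007 CPM in Plzf lu/lu, with 4 of 8 tested genes higher, against 80 of 13728 over all genes (0.583%). The part of such cells in the differences of T and Eomes was not tested. A fit without the clusters of other cell types left out the Sertoli cell-like cluster (30 cells) together with a spermatid-like cluster (193 cells). The spermatid-like cluster held 20 T-positive and 13 Eomes-positive Plzf +/+ cells. In that fit both genes had negative fold changes (edgeR adjusted p = 5.71e-09 for T and 1.08e-04 for Eomes), and it does not separate these clusters.

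Cells with a UMI of Gfra1, the GDNF co-receptor, held most of the T and Eomes UMIs of Plzf +/+ (200 of 212 and 80 of 96). At full depth T was found in 46 of 205, 48 of 200 and 30 of 161 Gfra1-positive Plzf +/+ cells (22.4%, 24% and 18.6%). Among Gfra1-negative cells it was found in 3 of 112, 4 of 103 and 3 of 116. Gfra1-positive cells were deeper, with a median of 6559.5 against 4596 UMIs. At 4000 UMIs per cell the shares were 16.9% with and 8.53% without Gfra1 for T, and 8.03% and 3.41% for Eomes. The T share was higher with Gfra1 in all 3 libraries, whereas for Eomes the plate 4 library had 4.00% with and 5.21% without it.

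Among Gfra1-positive cells the difference between genotypes had the same direction, although these cells lay in different clusters in each genotype. Of them 209 of 566 Plzf +/+ and 5 of 134 Plzf lu/lu cells lay in cluster 1, the cluster richest in T in the clustering described below, and 6 and 39 in cluster 5. The part of this difference in the values that follow was not tested. T had 53.1, 48.7 and 28.4 CPM in Plzf +/+ and 1.56 and 0 CPM in Plzf lu/lu, a log2 fold change of -4.86 (SE 0.67) that fell short of the threshold (edgeR adjusted p = 0.0574). At 2000 UMIs per cell it was -2.82 (edgeR adjusted p = 0.184), and over all cells at that depth -3.63 (edgeR adjusted p = 0.00517). This comparison called 11 of 12430 genes (0.0885%). Eomes had 25.2, 13.6 and 15.01 CPM against 3.91 and 0 CPM (log2 fold change -2.36, SE 0.69, edgeR adjusted p = 0.237). Counted by cell, 2 of 134 Gfra1-positive Plzf lu/lu cells had T (1.49%) and 4 had Eomes (2.99%), although these cells had a median of 9417.5 UMIs. T was called with a Gfra1 UMI required under DESeq2 (adjusted p = 0.00540) and, without the Plzf +/+ library of plate 1, under edgeR (adjusted p = 1.48e-07).

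The share of positive cells was also set against other identity genes, and the gaps varied in size and direction. At 4000 UMIs T was found in 20.2% of cells with Id4, a transcriptional inhibitor enriched in SSCs, and in 10.2% of cells without it. For Eomes these shares were 9.84% and 4.34% over all libraries. By library they were 6.45% and 6.43% in plate 1, 14.3% and 2.70% in plate 2 and 7.41% and 3.52% in plate 4, so plate 1 showed no such gap. With Zbtb16 the libraries went both ways, with T in 15.5% of cells with and 10.9% of cells without it in plate 1, 19.6% and 17.3% in plate 2 and 5.66% and 10.5% in plate 4 (13.4% and 13.1% in all). Genes of progenitors did not share a direction. T was found in 4 of 88 cells with Nanos3, an RNA-binding protein (4.55%), and in 14.5% of cells without it, lower with Nanos3 in all 3 libraries. It was found in 18 of 106 cells with Lin28a, another RNA-binding protein (17.0%), and in 12.4% of cells without it, higher with Lin28a in plates 1 and 4 and not in plate 2 (16.7% and 17.9%). Eomes was found in 3.77% of cells with and 6.39% of cells without Lin28a. By library the Eomes shares were 8.33% and 6.09% in plate 1, 3.33% and 7.18% in plate 2, and 0 of 40 and 9 of 156 cells in plate 4. Plate 1 thus went the other way. With Nanos3 the Eomes shares were 3.41% and 6.36%, lower with it in plates 1 and 2 and higher in plate 4 (7.69% and 4.12%). With Zbtb16 they were 5.10% and 6.24%, lower with it in plates 2 and 4 and higher in plate 1 (6.90% and 6.29%). Pooled gaps were small for Pdx1, a homeobox factor found in only 33 cells (T 15.2% and 13.0%, Eomes 6.06% and 5.96%). By library Eomes went both ways, with 2 of 10 cells with Pdx1 and 5.83% without it in plate 1. In plates 2 and 4 Eomes was in 0 of 12 and 0 of 11 cells with Pdx1, against 7.04% and 4.86% without it. Pooled gaps were also small for Bmi1, a Polycomb protein (T 15.9% and 11.8%, Eomes 7.27% and 5.30%), and for Nanos2, an RNA-binding protein found in only 34 cells (T 11.8% and 13.2%, Eomes 8.82% and 5.81%). These shares compare cells of the same libraries and carry no test.

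Clustering of all cells without T and Eomes placed the T-positive cells mostly in 1 cluster. Cluster 1, led by Hs3st3b1, Nid1 and Lhx1 and given no cell type name, held 260 Plzf +/+ and 5 Plzf lu/lu cells. It contained 79 of the 134 T-positive cells (59.0%) and 31 of the 85 Eomes-positive cells (36.5%). At 4000 UMIs T was found in 20 of 72, 25 of 80 and 8 of 42 of its cells in the 3 Plzf +/+ libraries, 27.3% in all. In clusters 2, 3, 4 and 6 the T shares were 6.25%, 8.27%, 9.68% and 2.78%. Cluster 1 had the highest T share in each of the 3 libraries. Eomes was spread more evenly, with 9.28% in cluster 1 and 3.12%, 5.26%, 4.84% and 5.56% in the others. Of the others, cluster 2 was led by B2m, Stra8 and Ccnb1, cluster 3 by small non-coding RNAs, cluster 4 by spermatid transcripts such as Prm2 and cluster 6 by histone genes.

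**Figure D2:**
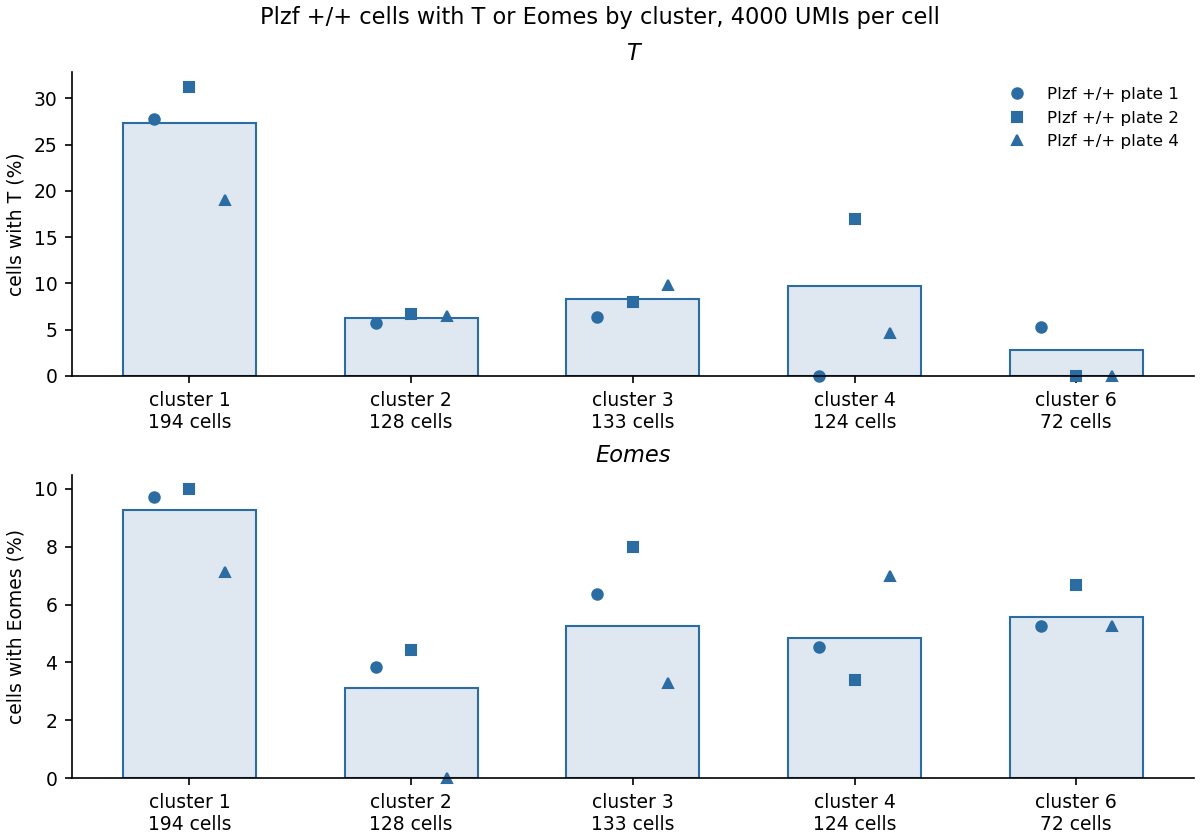
Share of Plzf +/+ cells with a T (top) or Eomes (bottom) UMI, in percent, by cluster at 4000 UMIs per cell. Bars pool the cells, points are the 3 libraries, and the T share of cluster 1 (27.3%) stands above those of the other clusters (2.78% to 9.68%) while the Eomes shares range from 3.12% to 9.28%.

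At full depth and at 4000 UMIs per cell, Eomes was found more often in T-positive than in T-negative Plzf +/+ cells of each library, and at 2000 UMIs in 2 of the 3. At full depth 33 Plzf +/+ cells had both, 101 had T alone, 52 had Eomes alone and 711 had neither. Depth raises the chance of finding both, so the equal-depth values follow. At 4000 UMIs Eomes was found in 28.6%, 17.5% and 11.1% of T-positive cells of the 3 libraries (8 of 28, 7 of 40 and 2 of 18 cells). In T-negative cells the shares were 3.41%, 4.32% and 3.93%. These values come from 1 draw of the thinning. The groups did not overlap. At 2000 UMIs per cell 8 cells held both genes, 7 of them from plate 1, and in plate 2 the order was the opposite, with Eomes in 0 of 25 T-positive cells and in 3.59% of T-negative cells.

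As a level, Eomes had 82.9, 45.5 and 29.6 CPM in the T-positive sums and 9.42, 11.5 and 12.7 CPM in the T-negative sums of the same libraries. The log2 fold change was 2.26 (SE 0.55, edgeR quasi-likelihood with the library as block, adjusted p = 0.0256), from 18 and 23 UMIs. Eomes passed the filter on low counts only through the T-positive sums, so this p is conditional on the group in which it was high and the fold change is given as a description. Without the filter the log2 fold change was 2.12 (edgeR adjusted p = 0.0604). It was also not called when plate 1 was left out (edgeR adjusted p = 0.389), under DESeq2 (adjusted p = 0.795) or with cells not thinned (edgeR adjusted p = 0.0846), and it was called under 6 of 12 alternatives. In the reverse split T had 175, 156 and 57.4 CPM in Eomes-positive and 36.0, 61.1 and 27.8 CPM in Eomes-negative sums (log2 fold change 1.67, SE 0.46, edgeR adjusted p = 0.245). T passed the filter only through the Eomes-positive sums. It was higher in all 3 libraries and was not called there or under any of the 15 alternatives.

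The likeness of every gene to T and Eomes was described by Pearson's r of log2(UMI + 1) over the 654 thinned Plzf +/+ cells, centred by library, for 9335 genes detected in at least 5% of them. The cells share libraries and plates, and no p is given. The 10 genes most like T were Ptpn13 (r = 0.29), Lhx1 (0.28), Tjp1 (0.25), Ypel5 (0.24), Abr (0.24), Fst (0.24), Nid1 (0.23), Sptbn1 (0.23), Drosha (0.23) and Egr2 (0.22). All were weak, against a 99th percentile of 0.14 over all genes. Eomes came 16th for T (r = 0.20, with 0.31, 0.18 and 0.08 in the libraries of plates 1, 2 and 4). For Eomes, T came first, followed by Adam9 (r = 0.20), Nid1 (0.19), Mfsd10 (0.19), Diexf (0.17), Sptbn1 (0.16), Dgkk (0.16), Arhgap31 (0.16), Fam65a (0.16) and Dip2c (0.15). Nid1 and Sptbn1 were on both lists. With 2000 UMIs per cell 2 of the 10 genes stayed among the 10 most like T and 0 of the 10 most like Eomes, so the ranks are loose. With the 2 other draws at 4000 UMIs the r with T fell to 0.13 and 0.14 for Fst and lay between 0.17 and 0.30 for the other 9 genes. In plate 4 alone it was 0.05 for Fst and 0.06 for Sptbn1. In the same draws the r with Eomes was 0.12 and 0.15 for T, 0.15 and 0.17 for Nid1, 0.12 and 0.12 for Sptbn1, 0.15 and 0.11 for Dgkk and 0.16 and 0.14 for Arhgap31. It was lower for Adam9 (0.07 and 0.09), Mfsd10 (0.03 and 0.03), Diexf (0.02 and 0.02), Fam65a (0.01 and 0.07) and Dip2c (0.09 and -0.06). In plates 1, 2 and 4 of the main draw, the r with Eomes was 0.24, 0.02 and 0.22 for Dgkk. For Arhgap31 it was 0.30, 0.17 and -0.003. Within Gfra1-positive cells 6 and 4 of the 10 stayed.

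**Figure D3:**
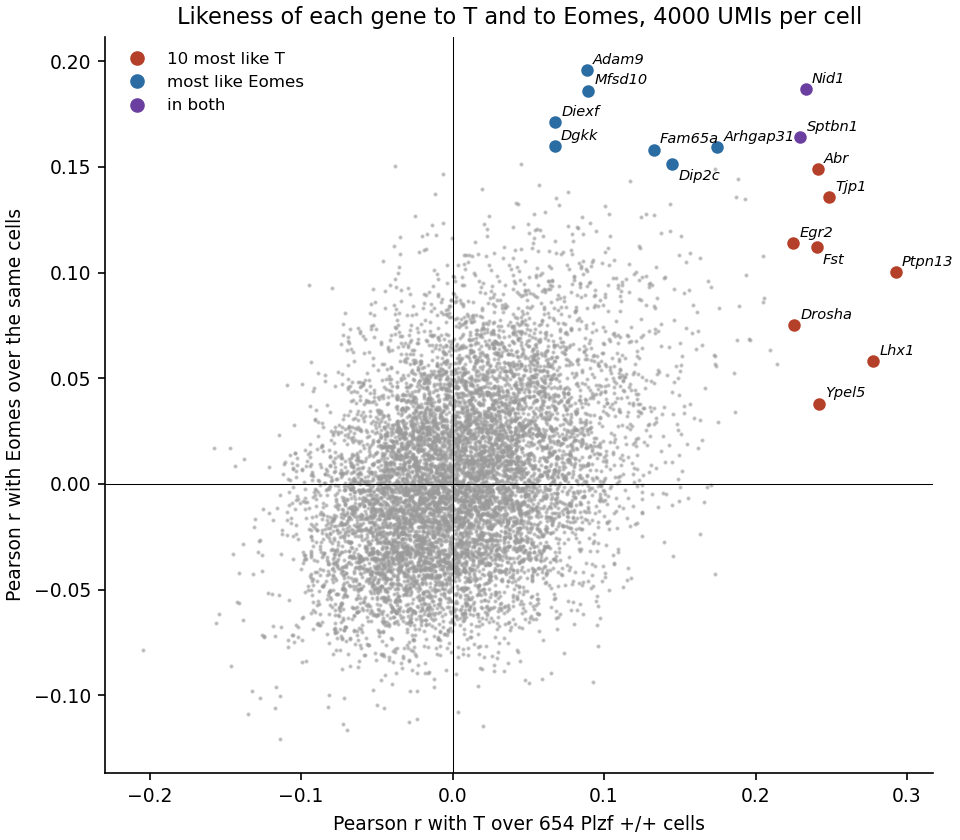
Pearson's r of each of 9335 genes with T (horizontal axis) and with Eomes (vertical axis) over 654 Plzf +/+ cells at 4000 UMIs, 1 point per gene. The genes most like T reach 0.29 and those most like Eomes 0.20, and Nid1 and Sptbn1 (purple) are on both lists.

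T-positive cells differed from T-negative cells of the same libraries in 102 of 7782 genes (1.31%), with 37 higher (0.475%) and 65 lower (0.835%). The classes held 28, 40 and 18 T-positive cells at 4000 UMIs, and 100 of the 102 genes moved the same way in all 3 libraries. The number depended on the draw and the test. It was 299 and 163 with other draws of the thinning, 26 with cells not thinned and 4 under DESeq2. Leaving out plate 1 left 8 genes, 7 of them among the 102, with Nid1, Ptpn13, Tjp1 and Stra8 included. Of the 102 genes 75 and 59 were called under the other draws, and 100 kept their sign with cells not thinned. Without the clusters of other cell types 78 of the 102 were tested, 73 kept their sign and 48 were called. Of the 37 higher genes 5, Eomes among them, passed the filter only through the T-positive sums.

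On the list of genes known to respond to GDNF, 14 of 18 were tested, 14 had positive fold changes with T and 4 were called higher, against 37 of 7782 (0.475%) over all genes (median log2 fold change 0.79, against -0.02). Of the 14 genes 1, not among the 4, passed the filter only through the T-positive sums. Lhx1, a LIM homeobox factor that is also on the primitive streak list, had 414, 208 and 296 CPM in T-positive sums and 82.1, 125 and 100 CPM in T-negative sums. Every T-positive sum lay above every T-negative sum (log2 fold change 1.53, SE 0.24, edgeR adjusted p = 1.10e-04), and 12 of 15 alternatives called it. When plate 1 was left out it was not called (edgeR adjusted p = 0.175), and neither was Bcl6b (0.487). Bcl6b, a transcriptional repressor needed for SSC upkeep, rose by 1.33 (log2, edgeR adjusted p = 0.0270), Dusp6, a phosphatase that restrains ERK, by 1.04 (0.00548) and Egr2, a zinc finger factor, by 0.97 (6.44e-04). Not called were Gfra1 (0.48, edgeR adjusted p = 0.187), its partner receptor Ret (0.36, 0.623), Etv5 (0.58, 0.388) and Id4 (0.69, 0.183). On the SSC identity list 7 of 12 genes were tested. Of these Eomes passed the filter only through the T-positive sums, and the other 6 were not called. On the T-box list Tbx3 (0.42) and Mga (0.11) were tested beside Eomes and not called. On the primitive streak list 5 of 25 were tested and Lhx1 alone was called, again against 0.475% called higher over all genes. Fgfr1, a receptor for FGF ligands, had a log2 fold change of 1.60 (edgeR adjusted p = 0.0725) and passed the filter only through the T-positive sums.

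Among the higher genes Ptpn13 and Nid1 had the smallest adjusted p. Nid1, which encodes the basement membrane protein nidogen-1, had 258, 299 and 296 CPM with T and 80.7, 105 and 114 CPM without it. The groups were far apart (log2 fold change 1.52, SE 0.22, edgeR adjusted p = 2.66e-05), and 14 of 15 alternatives called it. Ptpn13, a tyrosine phosphatase bound to the cell cortex, had 377, 475 and 326 CPM against 152, 169 and 159 CPM (log2 fold change 1.32, SE 0.18, edgeR adjusted p = 2.66e-05), also called in 14 of 15 alternatives. Tjp1, the junctional scaffold ZO-1, rose by 1.09 (log2, SE 0.17, edgeR adjusted p = 1.10e-04) and was called in 15 of 15 alternatives. Its levels were 497, 436 and 474 CPM against 206, 209 and 250 CPM. Abr rose by 1.05 and Sptbn1, a spectrin, by 0.85 (log2, edgeR adjusted p = 4.66e-04 and 0.00369). Fst, the activin antagonist follistatin, rose by 1.01, Drosha, the microRNA processing enzyme, by 0.80 and Ypel5 by 0.75 (log2, edgeR adjusted p = 0.00499, 0.00234 and 0.00462). In the plate 4 library Fst had 178 CPM with T and 176 CPM without it, so its rise lay in plates 1 and 2. The genes named here as most like T were ranked on the same cells, so likeness and fold change are not separate evidence.

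Other genes among the 12 of largest rise were less stable. Nxnl2, Syngr2, Rab4a and Padi3 passed the filter on low counts only through the T-positive sums, so their fold changes are given as a description and their calls as no support. Nxnl2 had the largest log2 fold change (3.36) and rested on 11 and 6 UMIs. Syngr2, a vesicle membrane protein (1.78), Rab4a, a GTPase of endosomal recycling (1.67), and Padi3, a peptidylarginine deiminase (1.35), had smaller ones. Marc2, a mitochondrial reductase (1.24), passed the filter in the T-negative sums too and was called in 8 of 15 alternatives. Plvap, a protein of endothelial diaphragms, had 82.9, 163 and 88.8 CPM with T and 47.1, 41.8 and 38.1 CPM without it (log2 fold change 1.44, edgeR adjusted p = 0.0173). Mtus1, a microtubule-associated protein, rose by 1.37 (edgeR adjusted p = 0.00548). These were called in 9 and 10 of 15 alternatives.

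**Figure D4:**
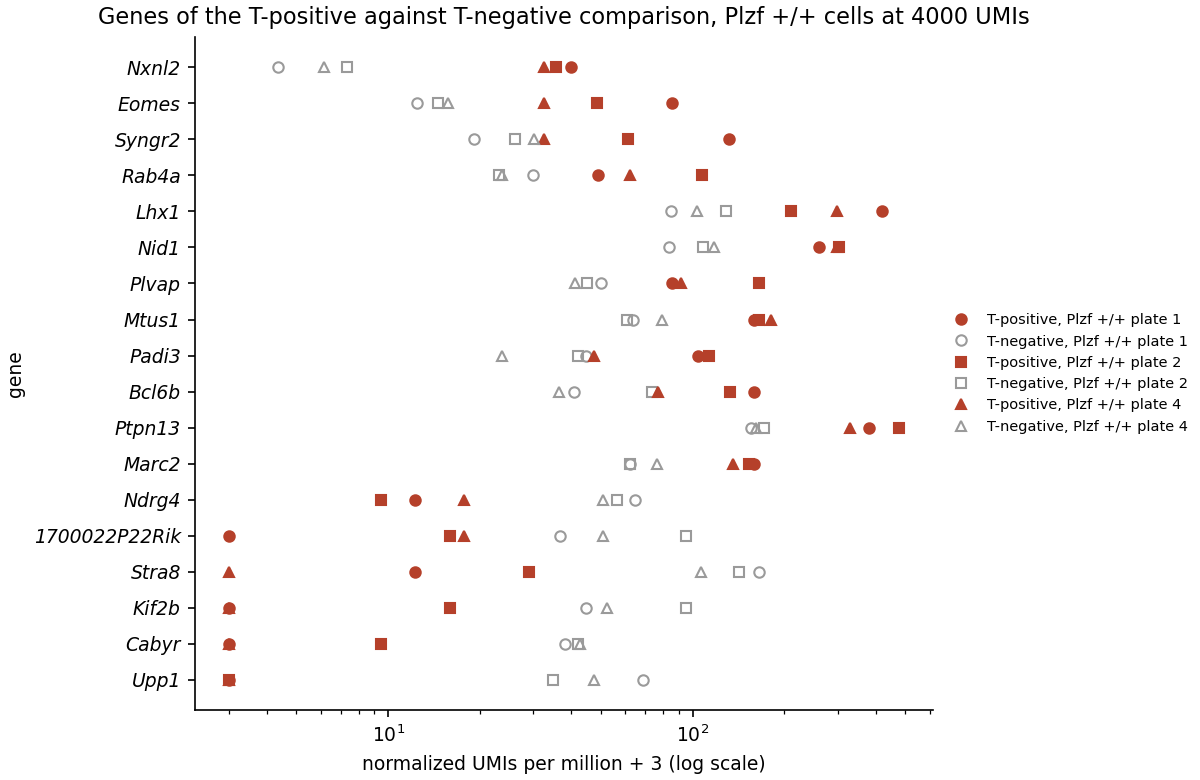
Normalized CPM plus 3 (horizontal axis, log scale) of the 12 genes with the largest rise and the 6 with the largest fall in T-positive Plzf +/+ cells, at 4000 UMIs per cell. Filled symbols are T-positive and open symbols T-negative sums of the 3 libraries, and for Lhx1, Nid1 and Ptpn13 all filled symbols lie to the right of all open ones, while for Stra8 and Upp1 they lie to the left.

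Of the 12 genes on the progenitor list 8 were tested, 7 had negative fold changes and 2 were called lower (median log2 fold change -1.17, against -0.02 over all genes, of which 0.835% were called lower). Stra8, the retinoic acid target needed for meiotic entry, had 9.21, 26.0 and 0 CPM in T-positive and 163, 138 and 103 CPM in T-negative sums (log2 fold change -3.19, SE 0.47, edgeR adjusted p = 4.66e-05). It was called in 14 of 15 alternatives. Upp1, uridine phosphorylase, had 0 UMIs in T-positive sums against 99 in T-negative sums, which is at least 4.996-fold lower when 3 UMIs are taken as the limit over the group. Sohlh1 and Nanos3 had log2 fold changes of -0.89 and -1.40 and were not called (edgeR adjusted p = 0.114 and 0.191). Sall4 had one of -0.01 (edgeR adjusted p = 0.995).

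The other 4 genes of largest fall rested on 1 to 3 UMIs in T-positive cells. Kif2b, a kinesin, had 2 UMIs with T and 126 without it, a 9.54-fold ratio of CPM with a counting interval of 2.59 to 79.6. Cabyr, a calcium-binding protein of the sperm tail, had 1 and 78 UMIs (ratio 11.8, interval 2.06 to 472), 1700022P22Rik 3 and 119 (6.01, 2.01 to 29.5) and Ndrg4 3 and 113 (5.70, 1.90 to 28.1). All were called lower by edgeR, with adjusted p from 0.00499 for Kif2b to 0.0470 for Cabyr. Spermatid markers summed to 71.4, 4919 and 278 CPM in T-positive and 1184, 3436 and 2638 CPM in T-negative sums of plates 1, 2 and 4. They were lower with T in plates 1 and 4 and higher in plate 2. Of the tested spermatid markers 0 of 9 were called (edgeR, 970 genes at an unadjusted p under 0.05 in the whole comparison, and 4 genes called by DESeq2). Spermatocyte markers summed to 857, 1488 and 681 CPM with T and 1091, 2061 and 1838 CPM without it. With cells not thinned, Cabyr and 1700022P22Rik turned to positive fold changes. The part of spermatid RNA in these differences was not tested.

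The split by T was repeated among cells with a Gfra1 UMI. It called 20 of 5199 genes (0.385%), with 6 higher and 14 lower. The higher genes were Nid1 (log2 fold change 1.504), Mtus1 (1.27), Lhx1 (1.09), Ptpn13 (0.97), Abr (0.90) and Tjp1 (0.88), with edgeR adjusted p from 7.33e-06 for Nid1 to 0.0361 for Mtus1. All 6 were also higher in the split of all cells, of which these cells are a part. Nid1 was called in 11 of 15 alternatives and the other 5 genes in 5 to 9. When plate 1 was left out Nid1 alone of the 6 was called (edgeR adjusted p = 0.00239). Stra8 and Eomes did not pass the filter on low counts here. Ldhc, the lactate dehydrogenase of spermatocytes, was 1 of the 14 lower genes.

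Of the genes higher in T-positive cells, 25 had a RefSeq promoter window. AGGTGT occurred in 3 of them (Mcam, Sptbn1 and Ypel5), GGTGTGA in 1 (Abr) and AGGTGTGA in 0. Of the 47 lower genes with a window 9, 3 and 0 held these letters. Among all 5621 tested genes with a window the shares were 10.9%, 3.02% and 0.712%.

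The split by Eomes gave far fewer calls than the split by T. It rested on 15, 15 and 9 Eomes-positive cells and called 1 of 7531 genes (0.0133%), with 369 at an unadjusted p under 0.05 and 0 called by DESeq2. The 1 gene was Oaz3, the antizyme of spermatids, with 0, 34.7 and 144 CPM in Eomes-positive and 328, 148 and 159 CPM in Eomes-negative sums (log2 fold change -2.15, SE 0.47, edgeR adjusted p = 0.0372). It was called in 3 of 14 alternatives. With 1 library left out at a time its log2 fold change ran from -3.75 to -1.01, and with cells not thinned it was 0.084. Nid1 had a log2 fold change of 1.25 (SE 0.32, edgeR adjusted p = 0.119) and Lhx1 one of 0.24 (0.999). GDNF response genes had positive fold changes in 13 of 14 tested (median 0.43, against -0.08 over all genes; 2 of the 14 passed the filter only through the Eomes-positive sums), and progenitor genes had negative ones in 8 of 8 (median -0.97), with 0 called. Whether the splits by T and by Eomes differ was not tested, and the Eomes classes were smaller.

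Several genes of the T split can be set beside their genotype values, which rest on the same Plzf +/+ libraries. Lhx1 had 97.8, 86.3 and 88.7 CPM in Plzf +/+ against 21.1 and 8.04 CPM in Plzf lu/lu (log2 fold change -2.30, edgeR adjusted p = 0.0186). Nid1 had 93.1, 104 and 94.8 CPM against 26.7 and 24.1 CPM (-1.90, edgeR adjusted p = 0.0126). For both the genotypes were well apart. Plvap (-2.01), Mtus1 (-1.61), Fst (-1.23) and Abr (-0.96) were also lower in Plzf lu/lu, with edgeR adjusted p from 0.0313 to 0.0423. Dgkk, a diacylglycerol kinase among the genes most like Eomes, was lower by 3.42 (log2, edgeR adjusted p = 0.0177). Ptpn13 (-0.95, edgeR adjusted p = 0.0597), Tjp1 (-0.77, 0.0632) and Egr2 (-1.37, 0.129) were not called, and Bcl6b had a positive fold change (0.41, 0.688). Of 16 tested GDNF response genes Lhx1 was called lower and Mycn higher (1.57, edgeR adjusted p = 0.0430). Of 12 tested progenitor genes Sox3 was called higher (1.64, edgeR adjusted p = 0.0478), while Stra8 was not called (0.81, 0.215). Over all genes 0.583% were called higher and 0.233% lower. The number of genotype calls depended on single libraries. Leaving out Plzf +/+ plate 1 gave 1387 calls, and leaving out any 1 of the other 4 libraries gave 1 to 6, with 0 genes lower (edgeR, 1058 to 1754 genes at an unadjusted p under 0.05).

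The 8 Plzf lu/lu cells that kept T or Eomes all came from plate 3, 4 with each gene, and 0 held both. They were deep cells, with medians of 10363.5 UMIs for the T cells and 13845.5 UMIs for the Eomes cells, against 6064.5 UMIs for the other 344 Plzf lu/lu cells. A single molecule was the whole evidence in 7 of them, since the count fell from 8 cells to 1 when 2 UMIs were required. Thinned to 4000 UMIs, 1 of the cells kept its UMI. All 8 carried Dazl and Ddx4, RNA-binding proteins of germ cells.

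All 4 Eomes cells had Gfra1. The deepest (23051 UMIs) had 2 Eomes, 6 Gfra1, 2 Zbtb16, 4 Id4, 2 Lhx1, 8 Egr2, 5 Nid1 and 6 Ptpn13 UMIs and lay in the histone-led cluster 6. This cell was the only Eomes or T cell of the mutant with a Zbtb16 UMI. The second (12692 UMIs) had 9 Gfra1, 6 Etv5, 12 Egr2 and 1 Lhx1 UMIs beside 6 of Stra8. The third (12534 UMIs) had 3 Gfra1, 6 Id4 and 3 Nid1 UMIs and 0 of Stra8. The last (14999 UMIs) had 4 Gfra1 UMIs together with 128 UMIs of spermatid markers, and lay in cluster 4.

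Of the 4 T cells 2 had Gfra1. One (8645 UMIs) had 3 Gfra1, 4 Egr2 and 7 Ptpn13 UMIs, and another (12082 UMIs) had 1 Gfra1, 7 Id4, 4 Egr2 and 1 Lhx1 UMIs. A cell of 22283 UMIs had 0 Gfra1 and 0 Nid1 UMIs but 12 of Sall4 and 22 of Stra8. That cell lay in cluster 2, the differentiating spermatogonia-like cluster led by B2m, Stra8 and Ccnb1. The shallowest (3670 UMIs) had 0 Gfra1, 4 Nid1 and 1 Stra8 UMIs and lay in cluster 5, where 126 of 145 cells were Plzf lu/lu.

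The 8 cells can be set beside the positive Plzf +/+ cells, although they were deeper and too few for a test. Stra8 was found in 6 of 8 of them, in 8 of the 134 T-positive (5.97%) and 13 of the 85 Eomes-positive (15.3%) Plzf +/+ cells, and in 94 of the 344 Plzf lu/lu cells with neither gene (27.3%). In the same order Lhx1 was found in 3 of 8, 94 of 134, 51 of 85 and 25 of 344 cells. Nid1 was found in 5 of 8, 98 of 134, 61 of 85 and 37 of 344, and Gfra1 in 6 of 8, 124 of 134, 70 of 85 and 128 of 344.

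**Figure D5:**
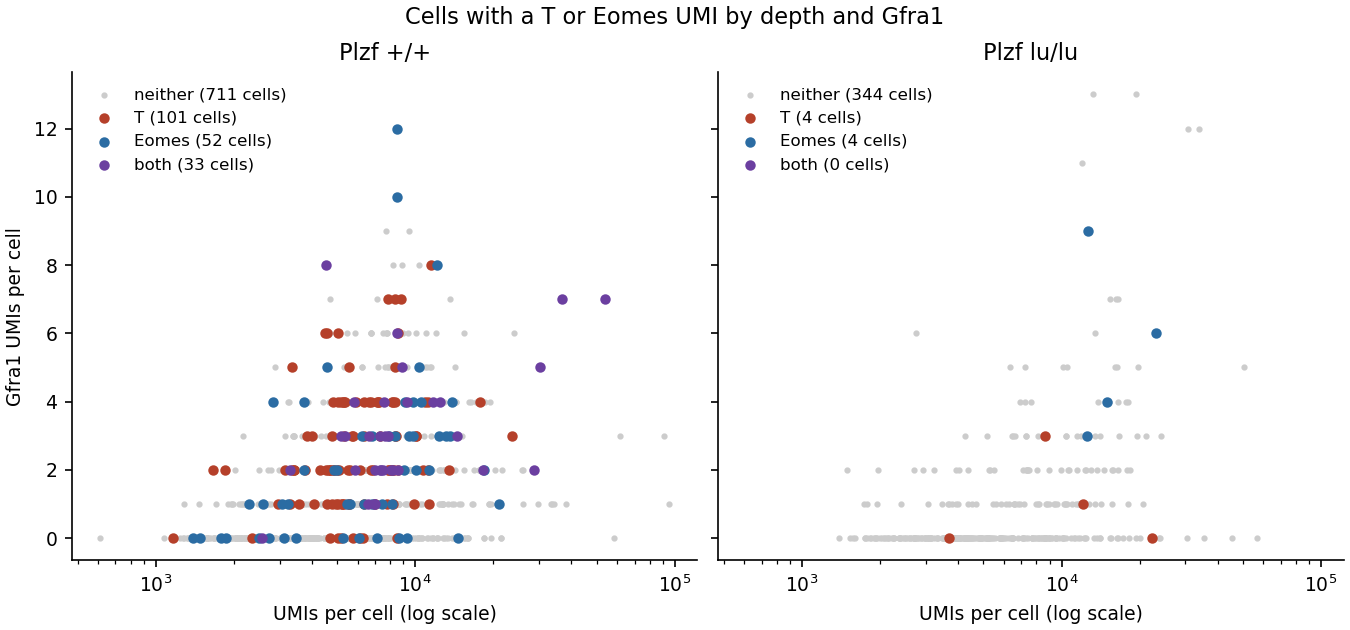
Gfra1 UMIs (vertical axis) against all UMIs (horizontal axis, log scale) of each Plzf +/+ (left) and Plzf lu/lu (right) cell, coloured by T, Eomes, both or neither. In Plzf +/+ 186 of 897 cells are coloured, 33 of them for both genes, and in Plzf lu/lu 8 cells are, 7 of them above 8000 UMIs.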

How the data were processed

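For each genotype the authors deposited a table of UMI counts, 1 row per gene symbol and 1 column per cell, as whole numbers without normalization. Submitters' processing notes name bcl2fastq 2.18.0.12, Picard 2.9.3, STAR 2.5.4a and GRCm38. The counting tool is not given in the sources used here. Each cell's library was read from the plate in its name. Cells of plate 4 took their genotype from the table that holds them, and 5 Plzf +/+ cells lie in wells labelled Plzf lu/lu (0 T and 0 Eomes UMIs). Library totals ranged from 254514 to 2608702 UMIs. Wells held 1 cell and no doublets were removed.

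Genotypes were compared on UMI sums per library, and T or Eomes classes on sums of cells thinned to 4000 UMIs (seed 1) per class and Plzf +/+ library, with the library as block, by edgeR 4.0.16 (R 4.3.3; TMM, filterByExpr, glmQLFit and glmQLFTest with robust estimation). The call threshold was 0.05 on p-values adjusted by Benjamini-Hochberg. All cells were clustered without T and Eomes (scanpy 1.11.5, leidenalg 0.10.2, 2000 variable genes, 20 components, 15 neighbors, resolution 0.5). On simulated counts the genotype fit recovered 19.4%, 74.6% and 98.4% of genes changed by a log2 fold of 1, 2 and 3 (13329 genes), and the T fit 33.8%, 81.0% and 88.9% (7406 genes).

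Named were both genes in every fit, the 12 largest rises and 6 largest falls among genes called and changed the same way in all 3 libraries, the 10 genes most like each member, and members of 5 lists (SSC identity, T-box family, primitive streak, GDNF response, progenitor). Kdr, the T and NK cell markers and the genes leading clusters were named after their values were seen. The members and lists were chosen with earlier results of these data known. Alternatives were DESeq2 1.42.0, RLE factors, no filter on low counts, other thinning, fewer cells and each library left out. Leaving out cells with T and NK cell markers, the 5 cells of plate 4 or cluster 5 was chosen after seeing the data.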

Additional observations from a re-analysis of the deposited data

How the results depend on the processing

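Results for the genotype difference of T kept a negative fold change under all 14 alternatives, with 5 no longer passing the threshold. Plzf +/+ and Plzf lu/lu libraries share the numbers 1 and 2 in their titles, but same-numbered libraries lie on different plates. Their deviations from the group means had r = 0.02 and -0.01 over 13728 genes. The libraries known to share plate 4 had r = 0.04, so this r cannot say what same-numbered libraries share. With the number as a block the log2 fold change was -4.73 for T (edgeR adjusted p = 0.464) and -3.48 for Eomes (0.595), and 0 genes were called by edgeR (973 at an unadjusted p under 0.05, and 133 called by DESeq2 without the block) against 112 without it. Genotype calls over all genes numbered 583 without a filter, 1783 without other cell types, 368 at 2000 UMIs and 72 without cells with T and NK cell markers.
Eomes passed the threshold without a filter (-3.05), without other cell types (-3.14) and at 2000 UMIs (-6.35, a value that depends on the prior count). In Gfra1-positive cells T passed under DESeq2 (-4.79), with RLE factors (-4.82), without a filter (-4.86) and without other cell types (-4.77), and Eomes passed without other cell types (-2.47). With 1 library left out at a time the log2 fold changes ran from -8.77 to -4.27 for T and from -7.65 to -2.68 for Eomes, and in Gfra1-positive cells from -8.66 to -4.57 and from -7.39 to -1.87. The most negative, with Plzf lu/lu plate 3 left out, are against 0 UMIs and depend on the prior count.
Eomes in T-positive cells no longer passed under DESeq2 (2.21), without a filter (2.12), without the block (2.26), with cells not thinned (1.80) or with the class thinned and values at full depth (2.04), ran from 1.70 to 2.53 with a library left out, and has no value under thinning seeds 2 and 3 or at 2000 UMIs, where it was under the filter. Eomes in Gfra1-positive cells likewise has no genotype value at 2000 UMIs. T in Eomes-positive cells ran from 1.23 to 1.89 with a library left out.
Genes called in the T split numbered 4 under DESeq2, 158 without a filter, 21 without the block, 59 at 2000 UMIs, 26 not thinned, 9 with values at full depth, 299 and 163 with seeds 2 and 3, 50 without other cell types, 62 without cells with T and NK cell markers, and 8 to 121 with a library left out. In the same order the Eomes split gave 0, 3, 0, 0, 0, 0, 6, 0, 0, 0 and 0 to 19 (RLE factors 0), and the T split of Gfra1-positive cells 0, 9, 12, 1, 0, 127, 37, 6, 9, 20 and 7 to 30. Not thinned, Cabyr (0.10) and 1700022P22Rik (0.21) reversed in the T split and Oaz3 (0.084) in the Eomes split. Of the 10 genes most like T and most like Eomes, 2 and 0 stayed at 2000 UMIs and 6 and 4 within Gfra1-positive cells. The 8 Plzf lu/lu cells with T or Eomes became 1 with 2 or more UMIs, 1 at 4000 UMIs and 2 at 2000 UMIs. The causes were not tested.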

Other observations

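Kdr, the receptor for VEGF and a member of the endothelial marker list, was found in 29 of 134 T-positive Plzf +/+ cells (21.6%) and in 34 of 763 T-negative ones (4.46%). It was singled out after its values were seen. By library the shares at full depth were 38.8%, 15.4% and 6.06% with T and 4.10%, 5.18% and 4.10% without it, so plate 1 carried most of the difference. At 4000 UMIs they were 16.3% and 2.99%. All 29 cells with both also had Dazl, a germ cell gene. Of the other endothelial markers Pecam1 was found in 3, Cdh5 in 2 and Vwf in 0 of the 134 T-positive cells. Among the 763 T-negative cells these numbers were 8, 4 and 2. In Plzf lu/lu Kdr was found in 3 of 352 cells, Pecam1 in 10, Cdh5 in 6 and Vwf in 7. The summed endothelial list had 27.8 to 89.3 CPM in T-positive and 2.81 to 14.6 CPM in T-negative sums.

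A few Eomes UMIs came from cells without germ cell genes. In the Plzf +/+ library of plate 2, 2 Eomes-positive cells of 1858 and 1477 UMIs had 64 and 49 UMIs of the 9 T and NK cell markers, with 11 and 12 of Nkg7 and 20 and 18 of Ccl5, and 0 of Dazl, Ddx4, Gfra1 and T. Eomes is also known as a factor of NK and memory T cells. Over both genotypes 20 cells had 5 or more UMIs of these markers. Leaving these cells out hardly moved the genotype difference of Eomes, which was not called either way (log2 fold change -3.04 against -3.02, edgeR adjusted p = 0.110 against 0.0801). Among Gfra1-positive cells it was -2.36 with and without them (edgeR adjusted p = 0.237 and 0.261). Of the 85 Eomes-positive Plzf +/+ cells 80 had Dazl, and of the 134 T-positive cells 132 had.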
